A study of Mus musculus with 6 samples.

Results

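The 6 genes described here encode fibrillar collagen chains (Col1a1, Col1a2 and Col11a1), a fibril-associated collagen (Col12a1) and enzymes that act on collagen (Adamts2 and P4ha3). They were picked by symbol, with the plate and scaffold values of this series already known, out of 581 genes that the authors had themselves selected as differing between the same libraries. The cells were wild-type NIH-3T3, an immortalised mouse embryo fibroblast line, and every library came from this 1 line in the same medium with fetal bovine serum. In 3 libraries the cells had grown on standard plates, and in the other 3 on a scaffold that the labels name Nanopore #3. The labels say neither what the scaffold is made of nor whether replicates were separate cultures, so the spread between libraries may be technical. Because the same contrast chose the genes, the scaffold and plate values are given as a description and no p-value is printed for these 6 genes.

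Fibrillar collagens are secreted as procollagen chains that wind into a triple helix built on a repeat of glycine and any pair of further residues. Type I collagen, made of chains from Col1a1 and Col1a2, is the bulk product of fibroblasts. Type XI collagen, to which Col11a1 contributes a chain, sits in the core of fibrils and is best known from cartilage. Before the helix forms, prolyl 4-hydroxylases, of which P4ha3 encodes a catalytic subunit, hydroxylate prolines in the third place of the repeat, which stabilises the helix. After secretion Adamts2, the procollagen N-proteinase, removes the amino-terminal propeptide so that fibrils can assemble. Col12a1 encodes a fibril-associated collagen that decorates type I fibrils and is not itself a fibrillar collagen, so the group is wider than the name fibrillar collagens.

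The coding sequences show that difference in structure. The first 10 triplets of the longest run of glycine triplets are printed below, with the glycine codons (GGN) in capitals, from the principal GENCODE M21 transcripts on GRCm38. They are spliced coding sequence, so the genomic spans include introns. The Col1a1 stretch lies at chr11:94939451-94939939 on the plus strand, that of Col1a2 at chr6:4512406-4515516 on the plus strand, that of Col11a1 at chr3:114105402-114108325 on the plus strand and that of Col12a1 at chr9:79612423-79613769 on the minus strand.
Col1a1: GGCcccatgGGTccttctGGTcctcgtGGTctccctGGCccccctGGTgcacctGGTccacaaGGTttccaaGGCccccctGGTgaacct
Col1a2: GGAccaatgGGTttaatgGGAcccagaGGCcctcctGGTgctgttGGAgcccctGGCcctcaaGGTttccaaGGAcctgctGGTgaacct
Col11a1: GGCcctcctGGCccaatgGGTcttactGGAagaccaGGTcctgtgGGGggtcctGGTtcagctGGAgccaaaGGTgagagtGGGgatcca
Col12a1: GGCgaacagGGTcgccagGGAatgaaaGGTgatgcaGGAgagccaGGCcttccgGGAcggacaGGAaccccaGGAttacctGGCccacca
In Col1a1 the run went on without a break for 338 triplets, in Col1a2 for 339 and in Col11a1 for 338. In Col12a1 the longest run was 32 triplets, and runs of at least 10 triplets held 7.64% of its codons, against 73.3% in Col1a1. Proline codons (CCN), whose product is the substrate of prolyl 4-hydroxylases when it stands in the third place, filled that place in 116 of 338 triplets of Col1a1 (34.3%), 94 of 339 of Col1a2 (27.7%), 106 of 338 of Col11a1 (31.4%) and 13 of 32 of Col12a1 (40.6%). Adamts2 and P4ha3, which act on collagen and are not collagens, had no run of 10 triplets.

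Each value is the number of reads of a gene after division by the size factor of its library, called the normalised read count here, and no value is corrected for gene length. All 6 genes had a lower normalised read count in each scaffold library than in any plate library as deposited. The size of the differences, and for Col1a2 the sign, depended on the scaling. DESeq2, scaled over the selected genes of 5 libraries, gave log2 differences of 0.00084 for Col1a2, -0.0237 for P4ha3 and -0.0478 for Adamts2. It gave -0.23 for Col1a1, -0.34 for Col11a1 and -0.65 for Col12a1. Quantile normalisation sets Col1a2 to 0 by construction, because it is the top gene in each library. The deposited scaling could not be checked, because genes outside the selection are not analysed here. Among all 581 genes, 386 (66.4%) were lower on the scaffold with no overlap between the groups. Of the 581, 392 (67.5%) were lower at an adjusted p of 0.05 in limma, fitted over the table on log2(value + 1), as were the 6 genes. Scaling over the table's own genes lowered that count to 208 with equal medians, where P4ha3 lost its call, to 210 with quantile normalisation, where P4ha3 and Col1a2 did, and to 59 in edgeR and 29 in DESeq2 on the recovered reads of 5 libraries, where Col12a1 alone of the 6 kept it. The genes used for scaling were all selected as differing, with 392 lower and 189 higher on the scaffold. With scaling over them, the median of all genes moved up by 0.63 to 1.06. The count fits also lacked scaffold replicate 3. On those 5 libraries with the deposited size factors, DESeq2 moved that median by 0.0578 but gave -1.65 for Col12a1, against -2.16 in limma on all libraries. The move of Col12a1 in the count fits was thus not from scaling alone. Calls lost with scaling over the selected genes do not decide which scaling is right. Since the table holds genes selected on this contrast, the counts of calls say nothing particular about collagen genes. The median log2 difference, scaffold minus plate, was -1.25 over the 6 genes, beside -1.16 over all genes of the table and -1.38 over the genes lower on the scaffold. For genes of this table, fewer transcripts per cell and fewer cells of a kind that makes them cannot be told apart in bulk RNA.

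**Figure D1:**
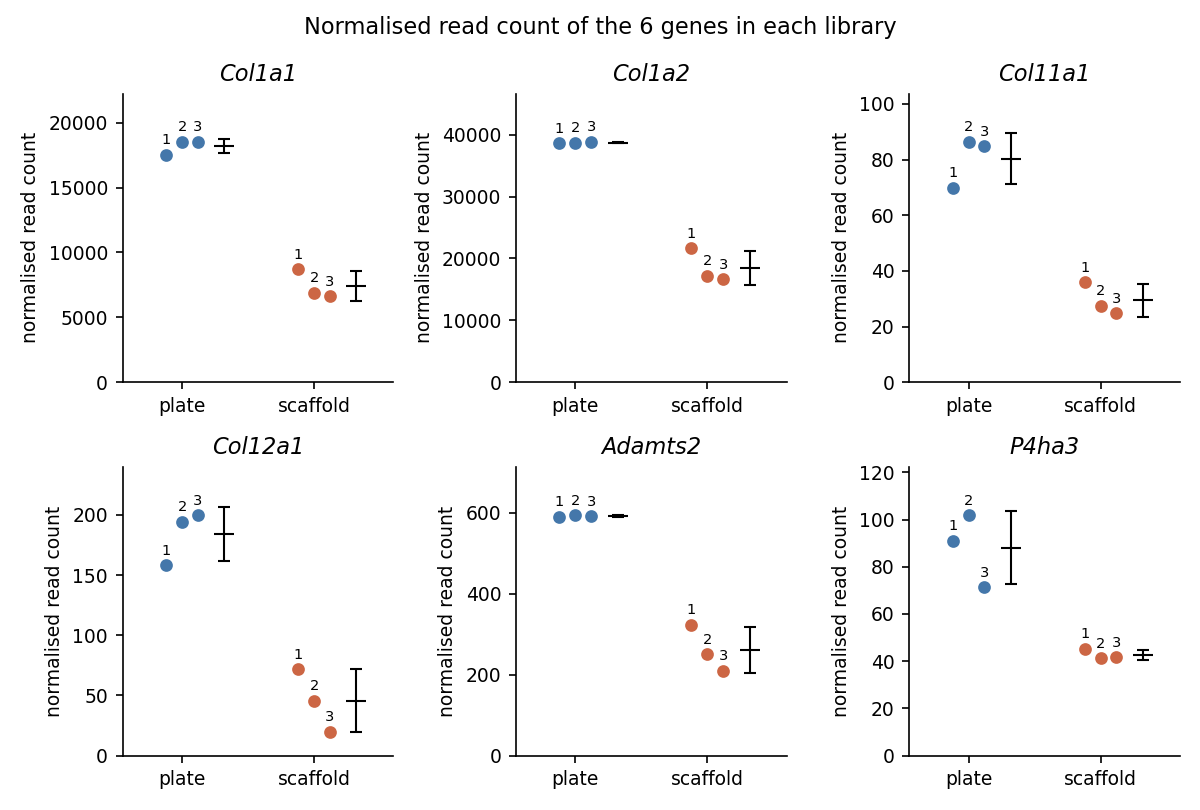
Normalised read count of each gene (vertical axis, from 0) in the 3 plate and 3 scaffold libraries, numbered by replicate, with the group mean and SD in black. As deposited, the groups do not overlap for any of the 6 genes, and Adamts2 has plate values within 589 to 594. DESeq2 scaled over the table's genes (5 libraries) takes the log2 differences of Col1a2, Adamts2 and P4ha3 to 0.00084, -0.0478 and -0.0237.

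Type I collagen dominated the values. Col1a2 (ENSMUSG00000029661, chromosome 6, 4504814 to 4541544, plus strand, GRCm38 coordinates) had normalised read counts of 38646, 38679 and 38883 in plate replicates 1, 2 and 3, and 21656, 17240.1 and 16604 in the scaffold replicates. It had the highest normalised read count of the table in all 6 libraries. Its mean was 38736 ± 128 on plates and 18500.1 ± 2752 on the scaffold (SD, n = 3 each), a 2.09-fold lower level. The plate libraries had a coefficient of variation of 0.331%, below the counting error of 0.499% that their reads allow, while the scaffold libraries had a coefficient of variation of 14.9%.

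Col1a1 (ENSMUSG00000001506, chromosome 11, 94936224 to 94953042, plus strand) encodes the other chain. Its normalised read counts were 17548, 18534 and 18544 on plates, against 8707, 6886 and 6607 on the scaffold. Every scaffold library thus held less than the lowest plate library, and scaffold replicate 1 was again the highest of its group. The mean level was 2.46-fold lower on the scaffold, with a log2 difference of -1.31 (SE 0.0939) against -1.08 (SE 0.0869) for Col1a2. Its rank by normalised read count went from place 2 or 3 of the table in the plate libraries to 7, 11 and 11 in the scaffold libraries. Behind these values stood 18011 to 19484 reads of Col1a1 per plate library, with 8467 and 6501 reads in scaffold replicates 1 and 2.

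A ratio of both chains within a library does not depend on how libraries are scaled. The ratio of Col1a1 to Col1a2 was 0.454, 0.479 and 0.477 in the plate libraries and 0.402, 0.399 and 0.398 in the scaffold libraries. The groups did not overlap, and the scaffold libraries agreed more closely with each other (SD 0.00208) than the plate libraries did (SD 0.0139). Col1a1 was therefore lower relative to Col1a2 on the scaffold, at 85.1% of the plate ratio, a log2 difference of -0.23 (SE 0.0252). How many other genes of the table do not overlap as a ratio to Col1a2 was not counted, so the gap is not shown to be particular to Col1a1. In a triple helix of type I collagen the chain from Col1a1 is the more numerous, whereas in these counts Col1a2 exceeded Col1a1 in every library, also per length.

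Both genes together also took a smaller part of the table. They made up 20.8%, 21.05% and 21.04% of the summed normalised read counts in the plate libraries. In the scaffold libraries they made up 10.2%, 8.24% and 8.12%. Summed over the other genes, the table's value was higher on the scaffold, at 266238, 268754 and 262748 against 213386, 214633 and 215532 on plates, as deposited. Of the summed mean decrease over all genes lower on the scaffold, 27.6% came from Col1a1 and Col1a2.

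**Figure D2:**
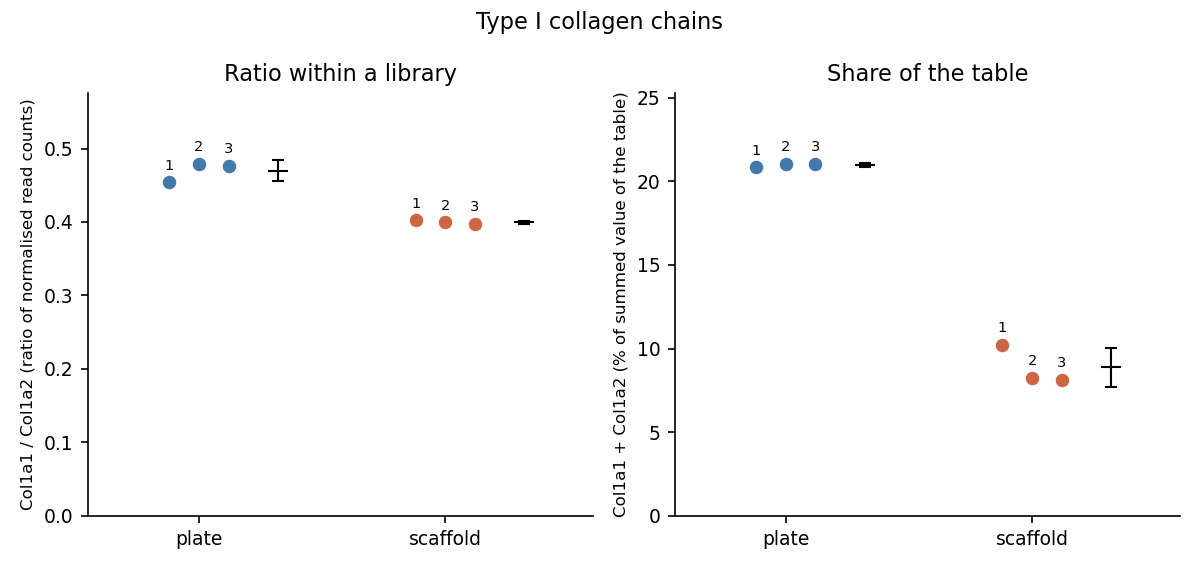
Left, the ratio of Col1a1 to Col1a2 normalised read counts within each library; right, Col1a1 plus Col1a2 as a percent of the summed value of the 581 genes. Points are libraries numbered by replicate, black marks are mean and SD, and both axes start at 0; the ratio is 0.454 to 0.479 on plates and 0.398 to 0.402 on the scaffold.

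The less abundant collagens had larger log2 differences, though that of Col11a1 lay within its SE of that of Col1a1. Col11a1 (ENSMUSG00000027966, chromosome 3, 114030540 to 114220718, plus strand) had normalised read counts of 69.9, 86.4 and 84.7 on plates, against 35.99, 27.5 and 24.7 on the scaffold. The lowest plate value was thus 69.9 and the highest scaffold value 35.99, with a log2 difference of -1.43 (SE 0.212). These values rest on 76, 84 and 89 plate reads and on 35 and 26 reads in scaffold replicates 1 and 2, and the plate spread of 11.3% was close to the counting error of 11.0%.

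Col12a1 (ENSMUSG00000032332, chromosome 9, 79598991 to 79718831, minus strand) had the largest difference of the 6. Its normalised read counts were 158, 194 and 199.9 on plates, against 72.0, 45.5 and 19.8 on the scaffold. The mean was 4.02-fold lower, with a log2 difference of -2.16 (SE 0.382). Of the 392 genes of the table with lower values on the scaffold, 38 (9.69%) had a larger decrease. The scaffold libraries did not agree on its size: scaffold replicate 1 kept 39.1% of the plate mean, replicate 2 24.7% and replicate 3 10.7%. That spread was 57.0% over all scaffold libraries. The counting error of about 13.3% is from replicates 1 and 2 only, and leaves out replicate 3, the lowest. Leaving out 1 library gave log2 differences between -2.57 and -1.66.

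The enzymes had log2 differences close to that of Col1a2. Adamts2 (ENSMUSG00000036545, chromosome 11, 50602084 to 50807573, plus strand) had normalised read counts of 589, 594 and 591 on plates, against 323, 251 and 209.9 on the scaffold. Plate libraries were nearly equal, with a coefficient of variation of 0.374% where counting error alone gives 4.04%, and scaffold libraries differed by up to 1.54-fold. The log2 difference was -1.20 (SE 0.150). Set against the summed type I collagen values of the same library, Adamts2 stood at 1.05%, 1.04% and 1.03% on plates, against 1.06%, 1.04% and 0.904% on the scaffold. These ranges overlapped.

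P4ha3 (ENSMUSG00000051048, chromosome 7, 100285520 to 100319699, plus strand) had normalised read counts of 91.0, 101.9 and 71.4 on plates, against 45.2, 41.3 and 41.6 on the scaffold. Of the 6 genes it alone varied less among scaffold libraries than among plate libraries, by 5.15% against 17.5%. Its log2 difference of -1.01 (SE 0.191) was the smallest of the group and lay near the lower edge of the table, where the smallest log2 ratio of group means was 1.00 in size. Relative to type I collagen it was 0.155% ± 0.0276 on plates and 0.166% ± 0.0156 on the scaffold, with overlapping ranges.

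By the same measure both minor collagens were lower relative to type I collagen on the scaffold. Col11a1 stood at 0.124% to 0.151% of the type I value on plates and at 0.107% to 0.119% on the scaffold. Col12a1 stood at 0.281% to 0.348% on plates, against 0.0853% to 0.237% on the scaffold. Neither pair of ranges overlapped, and library scaling has no part in these ratios. For Col11a1 the ranges came close, at 0.124% and 0.119%, with counting errors of 11.0% on plates and 18.1% on the scaffold. For Col12a1 they came to 0.281% and 0.237%, with counting errors of 7.25% and 13.3% in the same libraries. How many genes of the table do not overlap by this measure was not counted, so the gaps are not shown to be particular to Col11a1 or Col12a1.

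**Figure D3:**
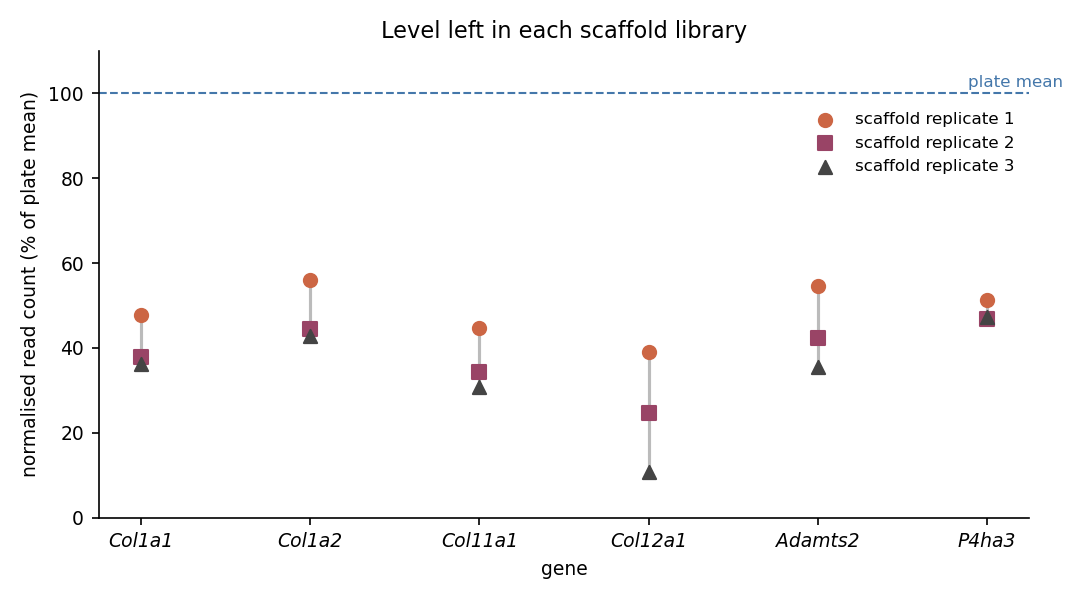
Normalised read count of each gene in scaffold replicates 1, 2 and 3 as a percent of its plate mean (dashed line at 100%), as deposited. DESeq2 scaled over the table's genes (5 libraries) takes the log2 differences of Col1a2, Adamts2 and P4ha3 to 0.00084, -0.0478 and -0.0237. Replicate 1 is highest for each gene, and the values for Col12a1 run from 39.1% down to 10.7% while those for P4ha3 lie between 46.9% and 51.4%.

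Scaffold replicate 1 held the highest scaffold value of all 6 genes, and replicate 3 the lowest of 5 of them. P4ha3 was the exception, with replicates 2 and 3 at 41.3 and 41.6. Over the genes of the table with lower values on the scaffold, replicate 1 was highest in 55.6%, and the full order from replicate 1 to 2 to 3 held in 34.9%. A larger coefficient of variation on the scaffold than on plates was seen in 5 of the 6 genes and in 81.6% of those lower genes. Leaving out scaffold replicate 1 or any other library kept all 6 genes lower, which was certain in advance because their groups do not overlap.

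Likeness of profiles was measured as the root mean square difference of log2(value + 1), each gene centred on its own mean over the 6 libraries. Since the genes of the table were selected as differing between the groups, the measure mostly compares the size of that difference, and a small value is no sign of shared control. Among the members, Col1a1 and Adamts2 were closest at 0.0927, followed by Col1a2 and Adamts2 at 0.0958, Col1a1 and Col11a1 at 0.0996, and Col1a1 and Col1a2 at 0.119. The pairs that include Col12a1 were the least alike, from 0.535 with Col11a1 to 0.787 with P4ha3.

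Among the 411 genes with a mean of at least 20, the 3 nearest to Col1a1 were Thbs1, Angpt1 and Cd248, at 0.0378, 0.0474 and 0.0697. Thbs1 encodes the matrix glycoprotein thrombospondin-1, Angpt1 a ligand of the Tie2 receptor, and Cd248 the surface glycoprotein endosialin of fibroblasts and pericytes. Cd248 had normalised read counts of 805, 855 and 875 on plates, against 366, 329 and 324 on the scaffold, which do not overlap. Nearest to Col1a2 were Adam23, Heg1 and Mmp19, at 0.0397, 0.0400 and 0.0456. For Adamts2 they were Medag, Uba7 and Fam43a, for P4ha3 they were Sat2, Pianp and Hipk4, and for Col11a1 they were Kcna4, Col1a1 and Trim7. The nearest to Col12a1 were farther away, with Kng2 at 0.149, Ly6a at 0.170 and Gm43151 at 0.209. Ly6a, the surface antigen Sca-1, shared the graded scaffold values, with 1361, 1420.1 and 1379 on plates, against 654, 329 and 134 on the scaffold.

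The ranks and the percentages of type I collagen above are on counts not corrected for length. Levels of the 6 genes were therefore also set side by side per kilobase, where the choice of length mattered for Col1a2. The table gives it 12426 bases, the union of all annotated exons including retained introns, while its principal transcript has 5348. Per kilobase of table length the plate mean was 2774 for Col1a1 and 3117 for Col1a2, and per kilobase of principal transcript it was 3071 and 7243. Adamts2 followed at 63.3 and 81.4 on these scales, P4ha3 at 28.1 and 37.3, Col12a1 at 12.1 and 16.0, and Col11a1 at 6.30 and 10.5. On the scaffold the order stayed the same per principal transcript, though Col12a1 and Col11a1 lay side by side at 3.98 and 3.84. No exon of the 6 genes overlapped an exon of another gene in GENCODE M21 on either strand.

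**Figure D4:**
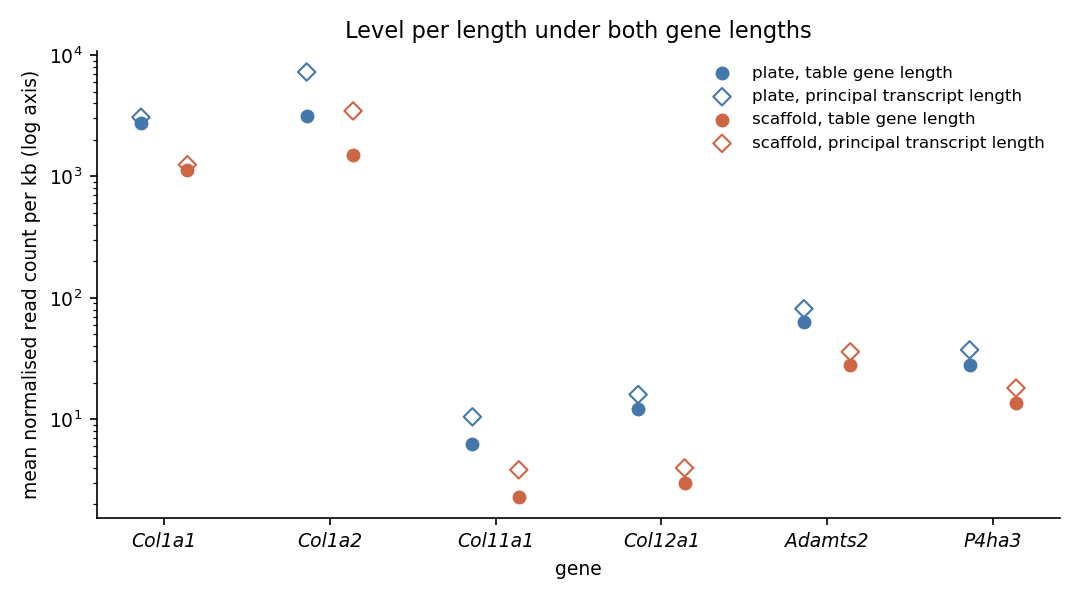
Mean normalised read count per kilobase (log axis) of each gene on plates and on the scaffold, with the gene length of the table (filled) or the principal transcript (open). Type I collagen genes lie far above the other 4, and Col1a2 moves from 3117 to 7243 per kilobase on plates with the choice of length.

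Promoter windows from RefSeq, 250 bases before to 50 after the start site on GRCm38.p6, matched 4 of the 6 genes. They are shown as a description of the genes only. CCAAT and the GC box GGGCGG are in capitals where either stands on either strand, and overlapping matches run together. The window of Col1a2 lies at chr6:4505368-4505667, of Col11a1 at chr3:114030290-114030589, of Adamts2 at chr11:50601835-50602134 and of P4ha3 at chr7:100285270-100285569, all on the plus strand. Col1a1 and Col12a1 were not matched.
Col1a2: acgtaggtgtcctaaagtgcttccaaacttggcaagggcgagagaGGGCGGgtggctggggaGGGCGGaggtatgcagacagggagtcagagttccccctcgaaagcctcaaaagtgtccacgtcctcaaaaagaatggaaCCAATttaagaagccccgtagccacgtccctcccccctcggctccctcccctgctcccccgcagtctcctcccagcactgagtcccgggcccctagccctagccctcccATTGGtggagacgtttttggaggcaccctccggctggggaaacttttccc
Col11a1: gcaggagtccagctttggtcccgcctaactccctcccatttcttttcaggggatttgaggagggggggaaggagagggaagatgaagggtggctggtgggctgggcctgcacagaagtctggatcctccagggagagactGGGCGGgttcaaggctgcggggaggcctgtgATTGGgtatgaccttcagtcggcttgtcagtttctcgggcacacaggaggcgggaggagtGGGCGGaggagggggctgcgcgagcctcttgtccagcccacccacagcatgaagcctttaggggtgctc
Adamts2: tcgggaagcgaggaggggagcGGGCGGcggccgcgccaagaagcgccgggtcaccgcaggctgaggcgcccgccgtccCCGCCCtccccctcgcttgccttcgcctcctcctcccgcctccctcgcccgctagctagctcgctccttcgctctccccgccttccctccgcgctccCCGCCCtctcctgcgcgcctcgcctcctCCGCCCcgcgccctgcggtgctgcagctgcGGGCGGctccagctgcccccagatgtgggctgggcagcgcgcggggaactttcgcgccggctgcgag
P4ha3: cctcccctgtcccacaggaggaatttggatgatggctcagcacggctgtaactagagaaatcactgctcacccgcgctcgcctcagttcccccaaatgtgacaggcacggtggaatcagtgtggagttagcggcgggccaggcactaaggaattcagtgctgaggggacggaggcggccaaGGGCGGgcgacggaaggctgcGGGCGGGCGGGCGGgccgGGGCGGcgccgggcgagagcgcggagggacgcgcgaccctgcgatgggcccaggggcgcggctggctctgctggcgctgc
GGGCGG was found in all 4 windows, against 35.7% of the 32851 windows of this length. Col1a2 and Col11a1 had 2 matches each, and Adamts2 and P4ha3 had 5 each. CCAAT was found in Col1a2 (2 matches) and Col11a1 (1 match) and in 37.4% of all windows. Neither the TATA motif TATAAA nor the AP-1 motif TGACTCA stood in these 4 windows, while 13.6% and 5.20% of all windows hold them. The windows had a GC content of 61.0% to 77.3%, where the median window has 52.7%. These are letter matches and say nothing of whether a factor binds.

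Few other genes of the collagen pathway were in the table, which is limited to selected genes, so the remainder were not analysed here. Of 44 protein-coding collagen genes it held 5, the 4 above and Col17a1. Of 140 pathway symbols outside the 6 genes it held 6: Col17a1, Thbs1, Ogn, Mmp13, Mmp1b and Egr1. Thbs1 and Ogn were listed as fibril-associated matrix genes, and Egr1 as a regulator of type I collagen. Mmp13 and Mmp1b came from the list of collagenases and gelatinases. None of the listed crosslinking enzymes or collagen receptors was among the 581 genes. Of the 6, 2 were lower and 4 higher on the scaffold at an adjusted p of 0.05 in limma, beside 67.5% and 32.2% of all genes of the table. The calls of Thbs1 and Ogn did not hold on the recovered reads of 5 libraries scaled over the table's genes, with adjusted p-values of 0.0926 and 0.399 in edgeR and 0.142 and 0.542 in DESeq2, and held in limma with equal medians or quantile normalisation.

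Col17a1 went against the other collagens. It encodes a transmembrane collagen of hemidesmosomes, known from epithelia, and has no part in fibrils. Its normalised read counts were 99.3, 87.5 and 84.7 on plates, against 165, 202 and 197 on the scaffold. No scaffold library reached down to the plate range, and the mean was 2.08-fold higher, with a log2 difference of 1.04 (SE 0.148). Rescaling over the table's genes gave log2 differences of Col17a1 from 1.46 after quantile normalisation to 2.03 with DESeq2. Because such rescaling moved the median of all genes up, values above 0 there add no support.

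Of 8 listed collagenases and gelatinases the table held 2, both higher on the scaffold and resting on few reads. Mmp13, a collagenase that cleaves fibrillar collagen, had 4, 2 and 2 reads in the plate libraries and 19 and 16 in scaffold replicates 1 and 2. Mmp1b, related to interstitial collagenase, had 0, 4 and 1 plate reads and 9 and 11 reads in the same scaffold libraries. It has a close copy in the genome, Mmp1a, so the assignment of its reads is uncertain. Mmp19, a matrix metalloproteinase outside that list, was lower, with normalised read counts of 787, 796 and 784 on plates, against 428, 375 and 350.4 on the scaffold. Egr1, a transcription factor known to act on type I collagen promoters, had normalised read counts of 91.0, 104 and 88.5 on plates, against 1327, 923 and 623 on the scaffold. Ogn, the small proteoglycan osteoglycin that binds collagen fibrils, went with Col12a1 in its uneven scaffold values of 66.8, 24.4 and 14.8, below plate values of 125, 129.7 and 86.6.

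**Figure D5:**
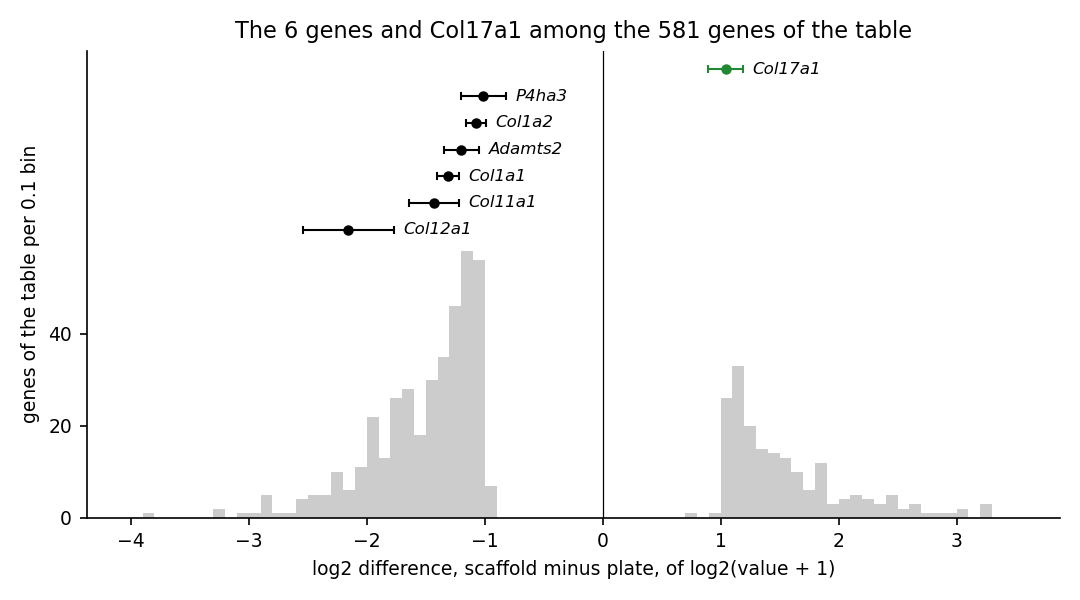
Histogram of the log2 difference, scaffold minus plate, over the 581 genes of the table, with the 6 genes (black) and Col17a1 (green) above it as points with SE. No genes lie around 0 in this selected table, and as deposited Col17a1 lies at 1.04 and the 6 genes from -2.16 to -1.01. DESeq2 scaled over the table's genes (5 libraries) takes Col1a2, Adamts2 and P4ha3 to 0.00084, -0.0478 and -0.0237.

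The fibroblast identity could not be checked from these values, because the table holds only genes selected as differing between the groups. Of 10 fibroblast markers it held 2, Col1a1 and Col1a2 themselves. Of 13 epithelial, endothelial and leukocyte markers 1 was present, the keratin gene Krt8, with 17.5, 13.4 and 13.3 on plates, against 29.8, 37.1 and 37.6 on the scaffold. Of 5 myofibroblast and smooth muscle markers the table held Acta2, with 161, 128 and 149 on plates, against 89.5, 67.8 and 51.5 on the scaffold. Its log2 difference of -1.09 as deposited turned to 0.089 in edgeR and 0.0996 in DESeq2 with scaling over the table's genes, and missed the threshold in limma with equal medians, at an adjusted p of 0.154. The part of these cell type markers in the collagen values was not tested. Reads in the table summed to 264178 to 293198 per plate library and to 288435 and 276519 in scaffold replicates 1 and 2.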

How the data were processed

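RNA was sequenced from 3 plate and 3 scaffold libraries, grouped and numbered by the sample labels. For each group the authors deposited 1 table, and both list the same 581 genes, selected as differentially expressed. The submitters' processing notes name fastp, HISAT2, HTSeq and DESeq2 and the build GRCm39, with versions not given in the sources used here. From the values, the deposited signal is a normalised one, reads of a gene over the size factor of the library (0.944 to 1.09). The deposited names say FPKM, but in each library 100% of values were whole multiples of 1 step, within 0.01 read, whatever the length. Reads were recovered for 5 libraries; a check did not accept those of scaffold replicate 3. No column of sample values was left out. Counting errors (1 over the square root of the mean reads, from the recovered libraries) cover counting only.

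All 581 identifiers were found in GENCODE M21, 551 with identical positions, so coordinates are GRCm38. The fit was limma 3.58.1 (R 4.3.3) on log2(value + 1) with an intensity trend and no block. Genes needed a mean of at least 0.5, which removed none. SEs come from this fit, and the Benjamini-Hochberg adjustment ran over all genes. With 3 libraries against 3, an exact permutation test reaches no p below 0.1. Alternatives were a pseudocount of 0.1, dropping the filter or raising it to 5, equal medians, quantile normalisation, a replicate block, no trend, edgeR 4.0.16 and DESeq2 1.42.0 on recovered reads, and leaving out each library. Count tests with the deposited size factors were added after seeing the data. The limma, edgeR and DESeq2 fits were tested on simulated data in which most genes did not differ and changes went either way. That test does not cover scaling over a table of selected genes such as this. The named genes are the 6 members, listed pathway and marker genes in the table, and the 3 nearest profiles of each member. Members and lists were chosen with earlier results of these data known. Triplet runs were read from codons of GENCODE transcripts.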

Additional observations from a re-analysis of the deposited data

How the results depend on the processing

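As deposited, all 6 genes were lower on the scaffold with either pseudocount, filter, trend setting or replicate block, and in every fit that left out 1 library. With no overlap between the groups, that direction could not change in these settings. The ranges without 1 library were -1.43 to -1.23 for Col1a1, -1.19 to -1.003 for Col1a2, -1.58 to -1.32 for Col11a1, -2.57 to -1.66 for Col12a1, -1.36 to -1.05 for Adamts2, -1.16 to -0.90 for P4ha3 and -0.26 to -0.22 for the log2 ratio of Col1a1 to Col1a2. The share of type I collagen differed by -12.8 to -11.7 percentage points, and 573 to 579 genes were called. With scaling over the selected genes, the median of all genes moved by 0.74 with equal medians and 0.63 with quantile normalisation. It moved by 1.05 with edgeR and 1.06 with DESeq2, which also lacked scaffold replicate 3. Equal medians gave -0.55 for Col1a1, -0.31 for Col1a2, -0.68 for Col11a1, -1.40 for Col12a1, -0.44 for Adamts2 and -0.26 for P4ha3. Quantile normalisation gave 0 for Col1a2, the top gene in each library by construction, -0.78 for Col11a1 and -0.40 for P4ha3, beside -1.39 for Col1a1, -1.66 for Col12a1 and -1.15 for Adamts2. These 2 settings called 208 and 210 genes lower in place of 392, without P4ha3 and, for the second, Col1a2. On recovered reads of 5 libraries with their own scaling, edgeR gave -0.24 for Col1a1, -0.011 for Col1a2, -0.35 for Col11a1, -0.67 for Col12a1, -0.0601 for Adamts2 and -0.0355 for P4ha3, and DESeq2 gave -0.23, 0.00084, -0.34, -0.65, -0.0478 and -0.0237 in the same order, so Col1a2 reversed. They called 248 and 218 genes, 59 and 29 of them lower, and of the 6 genes only Col12a1. With the deposited size factors, an alternative added after seeing the data, the same count tests called 580 and 554 genes and all 6 members. The median of all genes then moved by 0.0635 in edgeR and 0.0578 in DESeq2. In that setting DESeq2 gave -1.22 for Col1a1, -0.99 for Col1a2, -1.34 for Col11a1, -1.65 for Col12a1, -1.04 for Adamts2 and -1.02 for P4ha3. Deviations of same-numbered libraries from their group means correlated at -0.0287, 0.0728 and 0.0576 across genes. The replicate block called 580 genes in place of 579. The labels do not say whether the numbers pair libraries, and low correlations cannot settle it. Depth limits Col11a1 and P4ha3, with 26 to 99 reads a library.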
